A study of Danio rerio with 6 samples.

Results

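The collagen genes of the zebrafish (Danio rerio) tailbud region were followed in embryos injected with a morpholino against sall4. Members were the rows of the deposited tables whose gene name has the form of a collagen chain (col, a type number, a, a chain number). They came to 55 of 32520 rows, and each was sorted by its type number into a class. The fibrillar class (types 1, 3, 5, 24 and 27) held 10 rows, the basement membrane class (types 4, 15 and 18) 9, types 2, 8, 9 and 11, here called the notochord types, 12, and all other types 24. Of these 55 rows, 42 had enough reads to be tested, and the other 13 had 1 to 156 reads over all libraries together.

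Collagens are secreted proteins of 3 chains wound into a triple helix, and they give the extracellular matrix its tensile strength. Fibrillar collagens pack into the fibrils of connective tissue, type IV collagen forms the sheet-like network of basement membranes, and types XV and XVIII attach to those membranes. In a young fish embryo the notochord is surrounded by a sheath rich in type II and other collagens, and the epidermis and the young somites lie on basement membranes. sall4 encodes a zinc-finger transcription factor of the spalt family.

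The tissue behind the last somite was taken at 16 hours post fertilisation, and strand-specific libraries were sequenced. The sall4 MO group had 3 libraries from embryos injected with the sall4 morpholino, an antisense oligomer that lowers the production of a protein without deleting the gene. The control group had 3 libraries. Control 1 came from embryos that received a scrambled morpholino, and controls 2 and 3 are labelled non-injected, so injection itself was matched in 1 control only. The labels name no strain, and they do not say whether libraries came from separate clutches or how many embryos were pooled, so the p-values below speak of the variation among 6 libraries, part of which may be technical. In these tissue libraries, fewer cells of a type and less RNA per cell cannot be told apart.

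Libraries held 18626513 to 25144393 counted reads in the sall4 MO group and 18687559 to 42423495 in the control group. Values within a gene are given below as CPM (read counts scaled to a common library size), and levels are compared between genes only as the deposited FPKM, which divides by gene length. The sall4 transcript itself stood at 975, 1337 and 1390 CPM in sall4 MO libraries 1 to 3 and at 1110, 1312 and 1347 CPM in controls 1 to 3. Its groups overlapped (log2 fold change -0.026, SE 0.27, edgeR adjusted p = 0.97). A morpholino need not lower the amount of its target RNA, so this level does not check the knockdown. Transcripts of tbxta, a gene of the notochord, were present at 461 to 690 CPM in sall4 MO libraries and at 612 to 709 CPM in controls. In this region tbxta also marks mesodermal progenitors of the tailbud, so its level is no measure of notochord alone.

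Gene length bore on the comparison, because the sall4 MO libraries differed from each other along it. Lengths were recovered from the ratio of deposited counts to FPKM. Over all 17803 tested genes, the Spearman correlation between length and a gene's deviation from its mean over the 6 libraries was -0.41, 0.42 and -0.28 in sall4 MO 1, 2 and 3, and 0.20, -0.016 and 0.040 in controls 1, 2 and 3. Long genes were thus relatively high in sall4 MO 2 and relatively low in sall4 MO 1 and 3. Collagen genes are long, and 38 of the 42 tested ones (90.5%) exceeded the median tested gene, with a median length of 5949 bases against 2386 bases. Over the collagen genes alone, the same correlation was -0.13, 0.39 and -0.069 in sall4 MO 1, 2 and 3 and 0.029, -0.11 and -0.28 in controls 1, 2 and 3. These correlations run across genes of the same libraries and are descriptions only. Beside each class the comparison is therefore also given with each library's length trend removed.

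**Figure D1:**
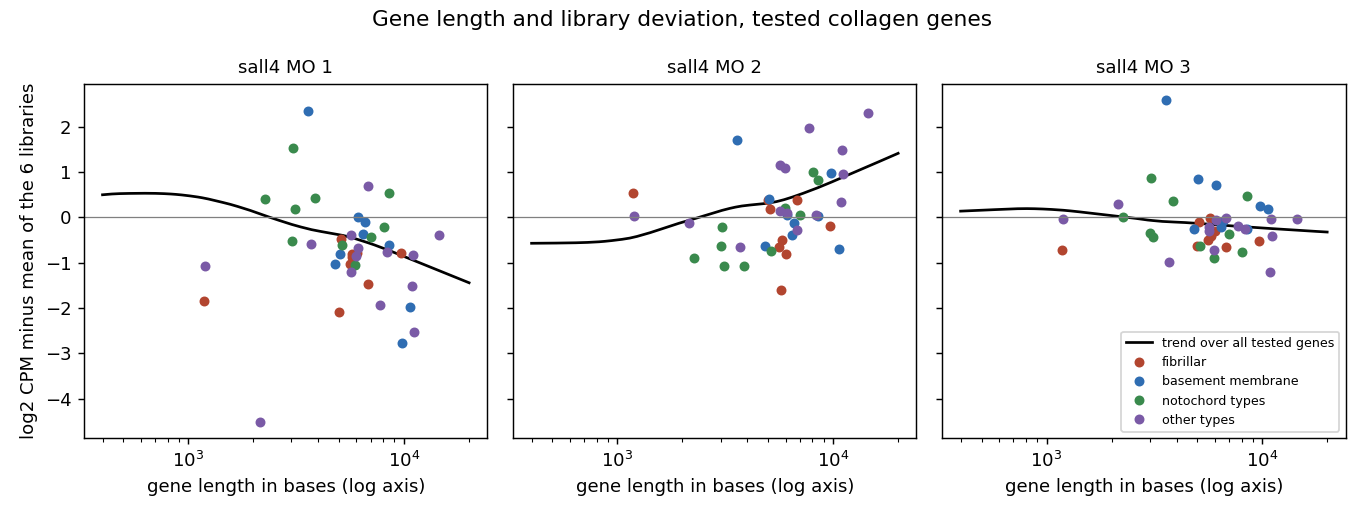
Gene length (log axis, bases) against deviation from the mean over the 6 libraries (log2 CPM) in sall4 MO 1, 2 and 3, with a point for each of the 42 tested collagen genes, coloured by class, and the trend over all tested genes as a line. The trend runs upward with length in sall4 MO 2 and downward in sall4 MO 1 and 3 (Spearman 0.42, -0.41 and -0.28).

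Collagen transcripts made up 0.37%, 0.58% and 0.49% of all counted reads in sall4 MO 1, 2 and 3 (0.480 ± 0.105%, SD, n = 3) and 1.09%, 0.58% and 0.79% in controls 1, 2 and 3 (0.821 ± 0.259%, SD, n = 3). The unrounded groups do not overlap, since sall4 MO 2 reached 0.577% and the non-injected control 2 had 0.579%, and these neighbours lie within the spread of either group. Summed over the 55 rows, collagen FPKM was 1053, 976 and 1111 in sall4 MO 1, 2 and 3, against 2109, 1111 and 1715 in controls 1, 2 and 3. A few chains carried most of that sum. The highest mean FPKM over the 6 libraries belonged to col8a1a (281), col1a1a (262), col5a2a (161) and col18a1a (130.3), followed by col2a1a (76.3) and col2a1b (73.5).

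Of the classes, only the basement membrane class had shares of the collagen pool that did not overlap between the groups. These chains supplied 18.9 ± 0.762% of collagen FPKM in sall4 MO libraries and 14.95 ± 1.29% in controls (SD, n = 3 each), with ranges of 18.1% to 19.6% and 13.7% to 16.3% that do not overlap. Within them, col18a1a alone supplied 11.4 ± 0.370% in sall4 MO libraries and 8.71 ± 0.546% in controls (SD, n = 3 each). Its own mean FPKM was not higher, at 119 in sall4 MO libraries and 141 in controls. The higher share stood beside a lower mean collagen FPKM sum, 1047 in sall4 MO libraries and 1645 in controls. In the same class, col18a1b had a mean FPKM of 11.7 in sall4 MO libraries and 0.560 in controls. Fibrillar chains gave 32.9 ± 5.37% in sall4 MO libraries and 40.3 ± 5.05% in controls. Their ranges overlapped narrowly, through sall4 MO 2 (36.96%) and control 2 (36.82%). Among them, col1a1a alone supplied 13.8 ± 2.37% in sall4 MO libraries and 22.1 ± 5.67% in controls (SD, n = 3 each). Its ranges of 12.2% to 16.5% and 18.3% to 28.6% did not overlap. The notochord types gave 43.5 ± 8.26% in sall4 MO libraries and 40.2 ± 4.42% in controls, which is within the spread. No test was run on these shares, and a higher share of one class goes with a lower share of another.

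Across the tested collagen genes the fitted fold changes lay mostly below 0. The median log2 fold change, sall4 MO over control, was -0.65, with 31 of 42 genes (73.8%) below 0, against a median of 0.12 and 41.8% below 0 over all tested genes. In 12 of the 42 genes (28.6%) every sall4 MO library lay below every control, against 9.18% of all tested genes. The opposite order held in 4 collagen genes (9.52%), against 7.77% of all tested genes. With the length trend removed, the collagen median was -0.57 beside 0.10 for all genes, and 12 collagen genes lay wholly below and 4 wholly above, against 9.44% and 9.99% of all tested genes. These were not all the same genes, since 9 of the 12 and 2 of the 4 were shared with the uncorrected values. The groups of col5a1, col4a5, the shorter col19a1 model, col4a1 and col8a2 then overlapped, while col5a3a, col12a1a and col12a1b lay wholly below and col6a3 and col7a1 wholly above. Control 1, the scrambled-morpholino library, was the highest of all 6 libraries in 22 collagen genes, and sall4 MO 1 was the lowest of all 6 in 24.

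Only 1 collagen gene passed the test over all genes, and it was higher in the sall4 MO group. The edgeR quasi-likelihood test with Benjamini-Hochberg adjustment at 0.05 called 5 of 17803 genes (0.0281%), all of them higher in the sall4 MO group, and col18a1b was among them. It called 0 collagen genes lower, where 14 collagen genes were lower and 4 higher at an unadjusted p under 0.05, against 5.19% and 4.47% of all tested genes. DESeq2, used as an alternative, called 1.61% of genes (0.863% higher and 0.743% lower) and 3 collagen genes, which were col18a1b (higher) and col1a1b and col2a1b (both lower). The number of edgeR calls rested on single libraries. Without sall4 MO 2 it came to 12 collagen genes, 3 higher and 9 lower, against 8.38% of all genes (3.94% higher and 4.44% lower), without sall4 MO 1 to 1, and without any one of sall4 MO 3 or controls 1, 2 and 3 to 0. The 12 genes called without sall4 MO 2 were col18a1b, col8a2 and col11a1b, all higher, and col1a1b, col1a2, col5a1, col5a3a, col24a1, col2a1a, col2a1b, col12a1a and col14a1b, all lower. With the length trend also removed there were 9, 4 higher and 5 lower, against 5.32% of all genes (2.54% higher and 2.78% lower), with col4a1 added among the higher ones and col1a2, col5a1, col2a1a and col14a1b no longer called.

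**Figure D2:**
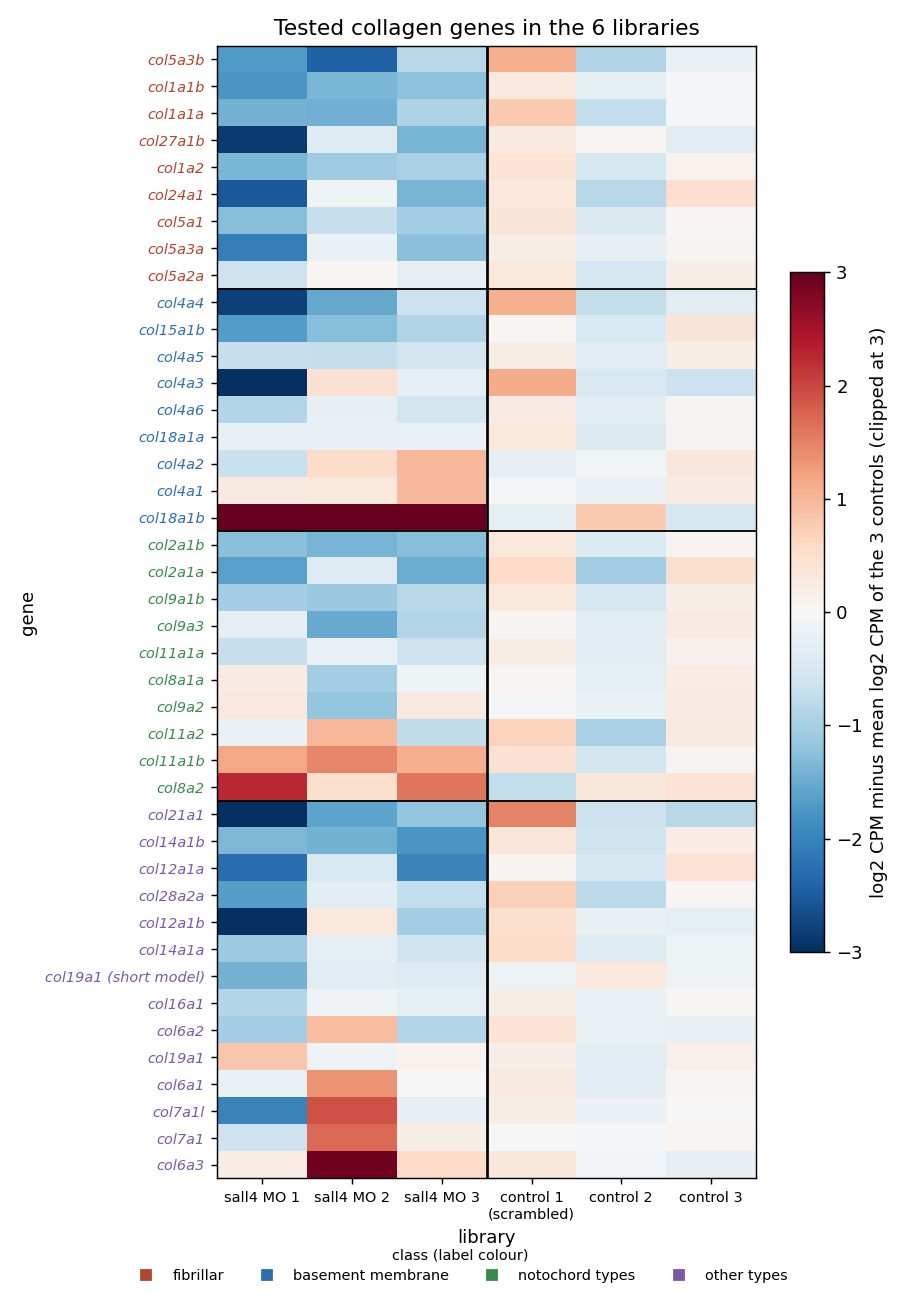
Deviation of the 42 tested collagen genes (rows, by class) from the control mean in each of the 6 libraries (columns, sall4 MO 1 to 3 left of controls 1 to 3), in log2 CPM and clipped at 3. Most rows are below the control mean in sall4 MO libraries, col18a1b is far above it in all 3, and the rows of col6a3, col7a1 and col7a1l are high in sall4 MO 2.

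The fibrillar class, as defined here, was the one that lay lowest. It leaves out types 2 and 11, whose chains also form fibrils and which were counted with the notochord types. Of those chains, col11a1b (1.19) and col11a2 (0.05) had positive log2 fold changes, and col2a1a, col2a1b and col11a1a negative ones. All 9 tested members of the fibrillar class had a negative log2 fold change, from -1.76 to -0.28. The class median was -1.18 (-1.02 with the length trend removed). In 5 of them (55.6%) every sall4 MO library lay below every control, against 9.18% of all tested genes. By library, the class median deviation from the control mean was -1.69, -0.70 and -1.03 in sall4 MO 1, 2 and 3 and 0.33, -0.50 and 0.03 in controls 1, 2 and 3. The library with the smallest deviation in the sall4 MO group was the one with relatively high counts for long genes, and the trend-corrected medians there were -1.19, -1.38 and -0.77 in sall4 MO 1, 2 and 3.

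Type I collagen, the main component of connective tissue fibrils, has 3 chain genes in zebrafish, and all 3 stood below the controls in every sall4 MO library. For col1a1a (ENSDARG00000012405), the most abundant fibrillar chain, levels were 713, 702 and 1004 CPM in sall4 MO 1, 2 and 3 and 3312, 1144 and 1839.5 CPM in controls 1, 2 and 3. The scrambled control was by far the highest library, so the spread within the controls was wide (log2 fold change -1.38, SE 0.41, edgeR adjusted p = 0.35). Its paralogue col1a1b (ENSDARG00000035809) had 21.4, 27.8 and 31.1 CPM in sall4 MO libraries and 89.3, 60.2 and 70.8 CPM in controls. Here the replicates were tighter and the gap between the groups was clear, with a log2 fold change of -1.46 (SE 0.29). The edgeR adjusted p was 0.19 and the DESeq2 adjusted p was 0.0036, so the call depended on the tool. The alpha-2 chain gene col1a2 (ENSDARG00000020007) had 136, 169.7 and 179 CPM in sall4 MO libraries and 469, 247 and 383 CPM in controls (log2 fold change -1.18, SE 0.31, edgeR adjusted p = 0.29).

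Type V collagen, which joins type I fibrils and limits their diameter, gave chains that differed in their values. The col5a1 chain had 70.5, 105 and 84.2 CPM in sall4 MO libraries and 226, 128 and 175 CPM in controls, without overlap until the length trend was removed (log2 fold change -1.02, SE 0.31, edgeR adjusted p = 0.35). The much more abundant col5a2a had 526, 833 and 681 CPM in sall4 MO libraries and 995, 569 and 919 CPM in controls, and its groups overlapped (log2 fold change -0.28, SE 0.32, edgeR adjusted p = 0.74). In col5a3a the level followed the library, at 14.4, 52.8 and 25.5 CPM in sall4 MO 1, 2 and 3 and 68.2, 50.8 and 64.1 CPM in controls. By mean FPKM over the 6 libraries, col5a3b (0.35), col24a1 (6.02) and col27a1b (0.26) were the lowest of the tested fibrillar chains. They were at or below 11.95 CPM in every library, with log2 fold changes of -1.76, -1.13 and -1.23. Of these, only col27a1b had groups that did not overlap. The differences between chains of the same type were not tested.

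**Figure D3:**
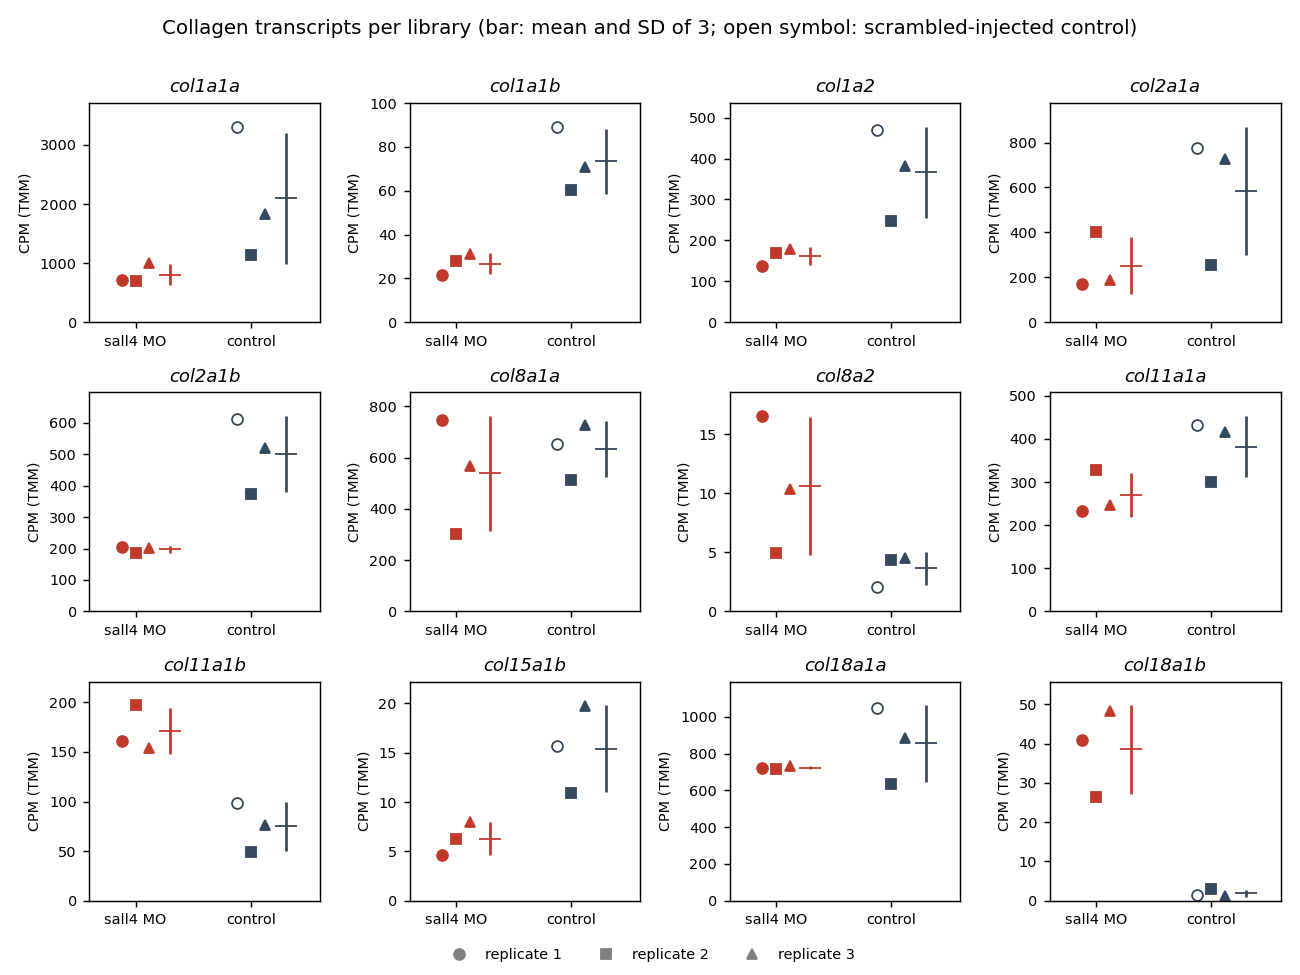
Levels of 12 collagen genes (CPM, with points for libraries and bars for the mean ± SD, n = 3 per group), with sall4 MO left of control and the scrambled-morpholino control as an open symbol. Type I chains, col2a1b and col15a1b are lower in all sall4 MO libraries, col18a1b, col8a2 and col11a1b are higher, and col18a1a and col8a1a overlap.

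In the basement membrane class the paralogues of type XVIII collagen gave different pictures, with col18a1b higher in the sall4 MO group and overlapping groups for col18a1a. Type XVIII is a heparan sulphate proteoglycan of basement membranes, known for endostatin, a fragment cut from its C-terminal end. The gene col18a1b (ENSDARG00000095901) had 623, 671 and 1186 reads in sall4 MO 1, 2 and 3 and 29, 60 and 49 reads in controls 1, 2 and 3. As CPM, that was 40.9, 26.3 and 48.4 in sall4 MO libraries and 1.40, 2.95 and 1.198 in controls. The lowest sall4 MO library lay well above the highest control, and the scrambled control lay between the non-injected ones. This gene rose by 4.39 on the log2 scale (SE 0.47, edgeR adjusted p = 0.042, DESeq2 adjusted p = 1.76e-17), and by 4.504 (edgeR adjusted p = 0.032) with the length trend removed. Leaving out sall4 MO 3, control 1, control 2 or control 3 left log2 fold changes of 4.19, 4.23, 4.89 and 4.14, with edgeR adjusted p-values of 0.26, 0.26, 0.20 and 0.40, so the size held while the call was lost.

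The paralogue col18a1a (ENSDARG00000036558) was by FPKM the more abundant gene in both groups. It had 724, 715 and 735 CPM in sall4 MO libraries and 1048, 634 and 886 CPM in controls, and the sall4 MO libraries lay inside the range of the controls (log2 fold change -0.24, SE 0.27, edgeR adjusted p = 0.75). In FPKM, col18a1b averaged 11.7 ± 3.62 in sall4 MO libraries and 0.560 ± 0.285 in controls, while col18a1a averaged 119 in sall4 MO libraries and 141 in controls (n = 3 each). The summed level of type XVIII transcripts was therefore set mainly by col18a1a. The genes share their ancestry, and reads that fit both could have been divided between them by the counting, and its settings are not stated.

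Over the 6 libraries, the collagen genes whose log2 CPM profiles were most like that of col18a1b were col8a2 (Pearson r = 0.81), col11a1b (0.79) and col4a1 (0.69), out of 41 compared. The least alike was col14a1b (r = -0.97). With 6 libraries in 2 groups, these values mostly restate the difference between the groups and are descriptions only.

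The other multiplexin gene among the rows followed here was col15a1b, which encodes a type XV chain of basement membranes. It had 4.66, 6.22 and 7.998 CPM in sall4 MO libraries and 15.6, 10.9 and 19.7 CPM in controls. Its groups did not overlap, in the direction opposite to col18a1b (log2 fold change -1.29, SE 0.35, edgeR adjusted p = 0.31). A difference in direction between related genes was thus seen in the values, and only the col18a1b change passed the test.

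Type IV collagen chains are encoded by head-to-head gene pairs in vertebrates, and the 3 pairs col4a1 and col4a2, col4a3 and col4a4, and col4a5 and col4a6 were neighbours in the RefSeq gene order (assembly GRCz12tu, used for order only). With all libraries the fold changes within each pair had the same sign. Without control 1, the scrambled control, col4a3 (0.17) and col4a4 (-0.89) differed in sign. The pair of the ubiquitous network, col4a1 and col4a2, gave 0.55 (SE 0.30) and 0.43 (SE 0.44) as log2 fold changes. In col4a1 every sall4 MO library (28.3, 29.3 and 46.6 CPM) was above every control (22.6, 20.9 and 27.9 CPM), by a small margin that was lost with the length trend removed. The abundant pair col4a5 and col4a6 gave -0.67 (SE 0.26) and -0.55 (SE 0.29). For col4a5 the values were 218, 215 and 241 CPM in sall4 MO libraries and 396, 278 and 396 CPM in controls, without overlap until the length trend was removed (edgeR adjusted p = 0.47). The pair col4a3 and col4a4 was low and scattered, at -0.61 (SE 0.82) and -1.62 (SE 0.64), and in col4a4 the scrambled control at 29.0 CPM was the highest library while the others lay between 1.97 and 10.9 CPM. None of the 6 type IV genes passed the test.

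Over the class, the 9 basement membrane genes had a median log2 fold change of -0.55, with 6 below 0 and 3 above, and 1 library could shift that median: it came to -0.071 when control 1 was left out and to -0.24 when sall4 MO 1 was left out, and to -0.37 with the length trend removed.

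**Figure D4:**
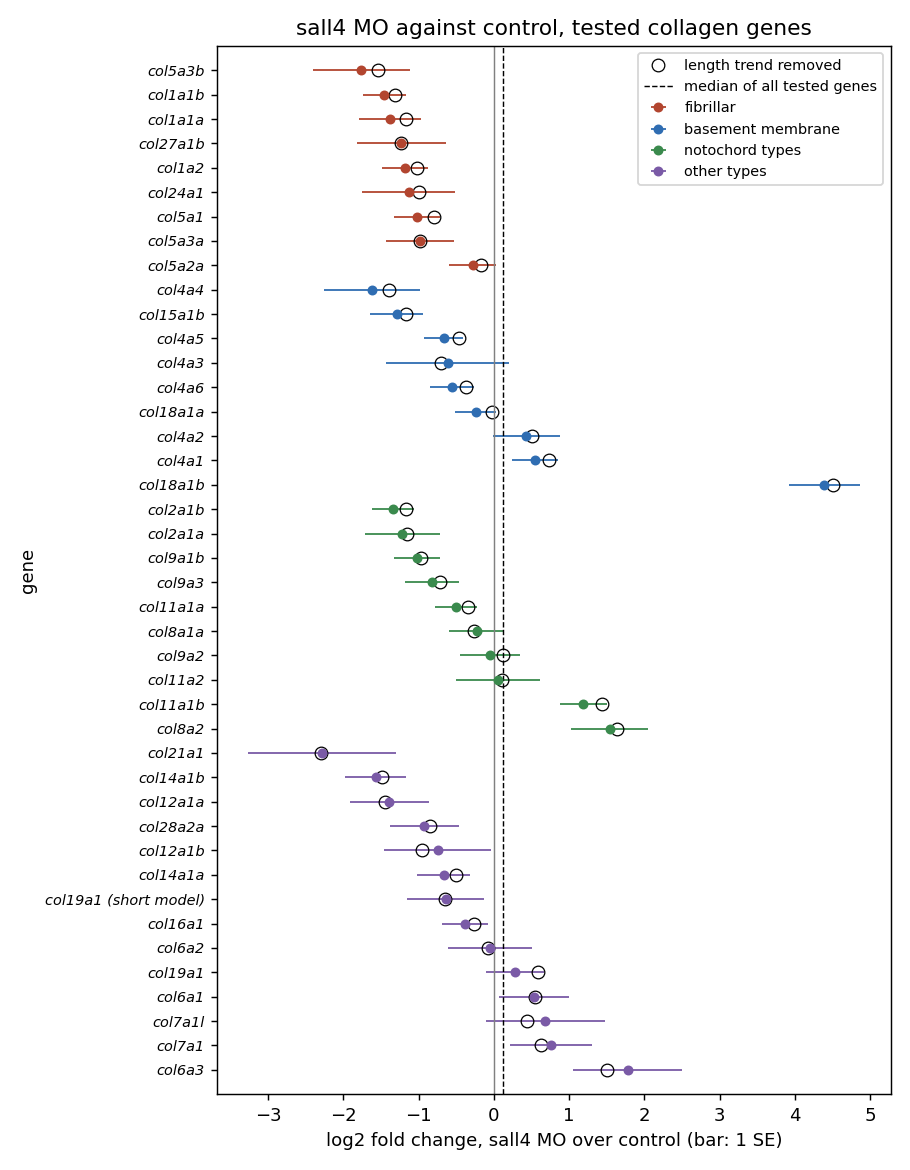
Log2 fold change, sall4 MO over control, of the 42 tested collagen genes by class (n = 3 per group). Filled points carry bars of 1 SE, computed from the edgeR F statistic. Open circles give the fit with the length trend removed, and a dashed line marks the median of all tested genes (0.12). The 9 fibrillar genes are all left of 0, and col18a1b stands apart at 4.39.

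The notochord types were divided. Type II collagen forms the main fibrils of cartilage and of the notochord sheath, and both its genes had lower means in the sall4 MO group. For col2a1b (ENSDARG00000011407) levels were 205, 185 and 203 CPM in sall4 MO libraries and 612, 372 and 521 CPM in controls. The sall4 MO values were close together and all below the controls (log2 fold change -1.34, SE 0.28, edgeR adjusted p = 0.20, DESeq2 adjusted p = 0.0066). For col2a1a (ENSDARG00000069093), levels were 169.8, 400.2 and 186 CPM in sall4 MO 1, 2 and 3 and 774, 255 and 725 CPM in controls 1, 2 and 3. The groups overlapped through sall4 MO 2 and control 2 (log2 fold change -1.21, SE 0.50, edgeR adjusted p = 0.50).

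Type XI collagen forms the core of type II fibrils, and its paralogous alpha-1 genes had fold changes of opposite sign. The gene col11a1b had 162, 197 and 154 CPM in sall4 MO libraries and 99.0, 49.4 and 76.4 CPM in controls. All sall4 MO libraries were above all controls (log2 fold change 1.19, SE 0.32, edgeR adjusted p = 0.29). The more abundant col11a1a had 233, 328 and 247 CPM in sall4 MO libraries and 431, 300.2 and 415 CPM in controls, with overlap (log2 fold change -0.50, SE 0.28, edgeR adjusted p = 0.58). The third type XI chain, col11a2, was near 0 in log2 fold change (0.05, SE 0.56). The difference between col11a1b and col11a1a was not tested.

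Type VIII collagen is a short, network-forming type, and in zebrafish col8a1a is needed for a normal notochord. This gene, the collagen with the highest mean FPKM, had 747, 302 and 568 CPM in sall4 MO 1, 2 and 3 and 654, 514 and 728 CPM in controls, and the groups overlapped (log2 fold change -0.23, SE 0.36, edgeR adjusted p = 0.81). Its sign turned without sall4 MO 2, to 0.034. The other tested type VIII chain, col8a2, had 16.6, 4.93 and 10.4 CPM in sall4 MO libraries and 2.03, 4.33 and 4.55 CPM in controls. The groups did not overlap, but sall4 MO 2 was close to the controls and overlapped them with the length trend removed (log2 fold change 1.54, SE 0.51, edgeR adjusted p = 0.40). Type IX collagen coats type II fibrils. Its chain gene col9a1b had 12.9, 12.1 and 14.7 CPM in sall4 MO libraries and 32.5, 18.5 and 29.6 CPM in controls, without overlap (log2 fold change -1.02, SE 0.31, edgeR adjusted p = 0.35). The other tested type IX chains, col9a3 (-0.82, SE 0.36) and col9a2 (-0.054, SE 0.40), had overlapping groups or a value near 0 in log2 fold change.

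The class median over these 10 notochord-type genes was -0.37, with 7 below 0 and 3 above. With the length trend removed it was -0.30, with 6 below 0, and without sall4 MO 2 it was -0.62. The 9 genes followed as a notochord list had a median log2 fold change of -0.020 over 8 tested. Their summed levels were 1080 to 1635 CPM in sall4 MO libraries and 1397 to 1623 CPM in controls. Of these sums tbxta alone gave 461 to 690 CPM in sall4 MO libraries and 612 to 709 CPM in controls. The list is not confined to the notochord, since tbxta also marks tailbud progenitors, and shhb and foxa2 are genes of the floor plate. Of these genes 2 were below every control in every sall4 MO library, noto (log2 fold change -0.59) and foxa2 (-0.67), and 1, shhb, was above every control (0.72). Over all tested genes, 9.18% lay wholly below and 7.77% wholly above the controls. The part of notochord cell number in the collagen values was not tested.

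**Figure D5:**
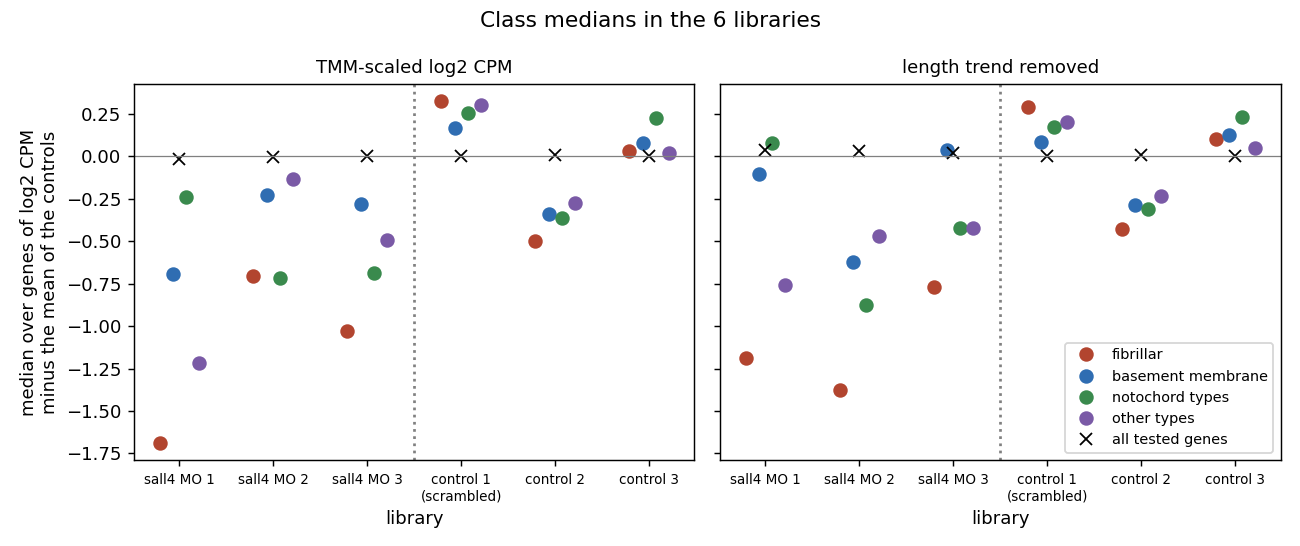
Median deviation of each collagen class from the control mean (log2 CPM) in each library, with the usual scaling at the left and with the length trend of each library removed at the right, sall4 MO left of control in each panel. The fibrillar median is -0.70 or lower in all sall4 MO libraries at the left and -0.77 or lower at the right, below the lowest control in both.

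Among the 24 genes of the other types, 14 were tested, with a median log2 fold change of -0.51, 9 below 0 and 5 above, and a median of -0.38 with the length trend removed. That median came to -0.23 without sall4 MO 1, -0.90 without sall4 MO 2 and -0.32 without control 1. None of the 14 passed the edgeR test. Type VI collagen forms beaded microfibrils and type VII the anchoring fibrils under the epidermis, and genes of both were highest in sall4 MO 2. The values of col7a1 were 6.24, 31.2 and 10.9 CPM in sall4 MO 1, 2 and 3 and 9.51, 9.30 and 9.90 CPM in controls 1, 2 and 3. For the related gene col7a1l they were 5.25, 78.9 and 17.7 CPM in sall4 MO libraries and 23.7, 18.8 and 21.2 CPM in controls. For col6a3 they were 1.64, 10.9 and 2.12 CPM in sall4 MO libraries and 1.79, 1.33 and 1.198 CPM in controls (log2 fold change 1.78, SE 0.72, edgeR adjusted p = 0.49). The controls of these 3 genes were close together. With all libraries the log2 fold changes of col7a1, col7a1l and col6a3 were 0.75, 0.68 and 1.78, and without sall4 MO 2 they were -0.18, -0.89 and 0.38. With the length trend also removed, they were 0.44, -0.50 and 1.19 without sall4 MO 2.

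Of the 6 fin fold markers, 5 were also highest of all libraries in sall4 MO 2, and frem1a was highest in control 1 (41.4 CPM, against 26.3 CPM in sall4 MO 2). The 6 fin fold genes summed to 152, 851 and 332 CPM in sall4 MO 1, 2 and 3 and to 532, 326 and 315 CPM in controls, with a median log2 fold change of 0.31, and all 6 had enough reads to be tested. Of them fras1, frem2a and hmcn1 have 13772, 14498 and 18497 bases, and the collagen genes col6a3, col7a1 and col7a1l have 14531, 10973 and 7679 bases. With the length trend removed, the deviations of col6a3, col7a1 and col7a1l from their control means in sall4 MO 2 were 1.89, 0.91 and 1.40, against 2.92, 1.70 and 1.90 before. The part of fin fold tissue and of length in these values was not tested further.

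Types XII and XIV are fibril-associated collagens that bind fibril surfaces. The gene col12a1a had 4.86, 17.5 and 6.04 CPM in sall4 MO libraries and 25.4, 16.8 and 32.2 CPM in controls (log2 fold change -1.39, SE 0.52, edgeR adjusted p = 0.45). The gene col14a1b had 1.18, 1.14 and 0.898 CPM in sall4 MO libraries and 3.96, 2.02 and 3.57 CPM in controls, without overlap (log2 fold change -1.57, SE 0.41, edgeR adjusted p = 0.29). Its more abundant paralogue col14a1a, found in the epidermal basement membrane of zebrafish embryos, had 89.1, 158 and 126 CPM in sall4 MO libraries and 279, 145 and 169.7 CPM in controls, with overlap (log2 fold change -0.67, SE 0.35). The rare col21a1 had 0, 17 and 22 reads in sall4 MO libraries and 118, 26 and 47 reads in controls. Its fitted log2 fold change of -2.29 (SE 0.98) rests on few reads and on the scrambled control, and was -1.14 without that library. The most abundant member of the class by FPKM, col28a2a, had 46.4, 117 and 87.0 CPM in sall4 MO libraries and 239, 85.0 and 151 CPM in controls, with overlap (log2 fold change -0.93, SE 0.46, edgeR adjusted p = 0.56).

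The 13 collagen rows that were not tested included col8a1b, col9a1a, both type X genes (col10a1a and col10a1b), both type XVII genes (col17a1a and col17a1b), col22a1, and 3 of the 4 type XXVIII genes. The most read of them was col6a4a, with 5, 112 and 20 reads in sall4 MO 1, 2 and 3 and 1, 3 and 15 reads in controls, again highest in sall4 MO 2. The names col6a3 and col19a1 each stood on a longer and a shorter gene model. The shorter col6a3 model was not tested, and the models of col19a1 had log2 fold changes of 0.28 (SE 0.38) for the longer and -0.64 (SE 0.51) for the shorter.

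The genes that make, fold, cut, cross-link, bind and degrade collagen were followed as a list. Of 64 symbols, 59 rows were found and 47 tested, with a median log2 fold change of 0.33 and 12 (25.5%) below 0, against 0.12 and 41.8% over all tested genes. All sall4 MO libraries lay above all controls in 6 of them (12.8%) and below in 2 (4.26%), against 7.77% and 9.18% of all tested genes. The edgeR test called 0 of the 47. At an unadjusted p under 0.05, 4 were higher (8.51%) and 1 lower (2.13%), against 4.47% and 5.19% of all tested genes, and DESeq2 called 2, both higher. One was serpinh1b, which encodes Hsp47, the endoplasmic reticulum chaperone of procollagen. It had 1307, 1251 and 876 CPM in sall4 MO libraries and 445, 524 and 430.0 CPM in controls, well apart (log2 fold change 1.30, SE 0.28, edgeR adjusted p = 0.21, DESeq2 adjusted p = 0.0083). The other was the collagenase gene mmp13b, with 4.99, 10.8 and 9.06 CPM in sall4 MO libraries and 3.67, 1.97 and 1.93 CPM in controls (log2 fold change 1.72, SE 0.43, edgeR adjusted p = 0.27, DESeq2 adjusted p = 0.023).

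By role, all 10 tested prolyl hydroxylation genes and all 3 tested lysyl hydroxylation and glycosylation genes had positive log2 fold changes, with medians of 0.42 and 0.40. Those 3 were plod1a, plod2 and plod3, since the symbols plod1b, colgalt1a, colgalt1b, colgalt2a and colgalt2b were not found. The prolyl genes p4hb (0.094), p3h4 (0.073) and crtap (0.064) lay below the median of all tested genes (0.12). With the length trend removed crtap was at -0.024. The median deviation of the prolyl list from the control mean was 0.41, 0.43 and 0.16 in sall4 MO 1, 2 and 3. For the lysyl list it was -0.13, 0.93 and 0.15, so that rise lay mainly in sall4 MO 2. Of the prolyl 3-hydroxylase genes, p3h3 was above every control in all sall4 MO libraries (59.6, 78.5 and 53.5 CPM, against 42.4, 43.9 and 34.3 CPM in controls) and p3h2 likewise (6.17, 6.07 and 14.5 CPM, against 4.34, 1.97 and 4.11 CPM in controls). Chaperone and secretion genes had a median of 0.20 over 11 tested, receptors 0.32 over 7, and degradation genes 0.37 over 5. The receptor and degradation lists were raised mainly in sall4 MO 2. Their median deviations in sall4 MO 1, 2 and 3 were -0.41, 0.67 and -0.046 for receptors and -0.070, 0.82 and 0.070 for degradation genes. Propeptide processing genes had a median of -0.0032 over 6 tested and cross-linking genes -0.16 over 5. In the processing group, pcolcea, whose product speeds the removal of the procollagen C-propeptide, was below every control (21.1, 17.03 and 20.2 CPM in sall4 MO libraries, against 41.9, 28.9 and 33.0 CPM in controls, log2 fold change -0.83, SE 0.27, edgeR adjusted p = 0.40).

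Markers of other cell types in the dissected tissue also differed, and their part in the collagen values was not tested. Over all tested genes, every sall4 MO library lay above every control in 7.77% and below in 9.18%. All 6 blood markers were above every control in every sall4 MO library, with summed levels of 252 to 1207 CPM in sall4 MO libraries and 26.1 to 222 CPM in controls and a median log2 fold change of 2.13. Of 5 neural crest markers, 4 were below every control, with sums of 152 to 223 CPM in sall4 MO libraries and 315 to 351 CPM in controls. Of 5 neural markers, 3 were below every control, with sums of 482 to 788 CPM in sall4 MO libraries and 874 to 959 CPM in controls and a median log2 fold change of -0.70. DESeq2 called 1 of them lower, elavl3 (log2 fold change -1.28 and edgeR adjusted p = 0.25, DESeq2 adjusted p = 0.034). It also called 2 neural crest markers lower, sox10 and snai1b (DESeq2 adjusted p = 0.00022 and 0.021). Of the blood markers it called 2 higher, hbbe2 and hbae5 (DESeq2 adjusted p = 0.0044 and 0.031). Over all genes DESeq2 called 0.743% lower and 0.863% higher. The edgeR test called 0 markers of these lists. Hatching gland markers varied widely within both groups, with sums of 47.9 to 240.1 CPM in sall4 MO libraries and 66.9 to 346 CPM in controls. Epidermal markers summed to 4151 to 8363 CPM in sall4 MO libraries and 7832 to 10381 CPM in controls. Of these sums krt4 alone gave 1739 to 4223 CPM in sall4 MO libraries and 3864 to 6921 CPM in controls. The median log2 fold change of the epidermal list was -0.041. Endothelial markers summed to 197 to 290.1 CPM in sall4 MO libraries and 229 to 297 CPM in controls. Muscle markers summed to 528 to 1862 CPM in sall4 MO libraries and 568 to 1030 CPM in controls, with myf5 alone at 1487 CPM in sall4 MO 1. Of 5 tested muscle markers, actc1b lay above every control (log2 fold change 1.44), narrowly in sall4 MO 2, and desma lay below every control (-1.42). The sclerotome list, whose cells later make connective tissue, was low throughout, at 6.38 to 21.1 CPM in sall4 MO libraries and 6.23 to 16.2 CPM in controls.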

How the data were processed

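RNA-seq of 6 libraries was analysed from the authors' deposited tables, which hold raw counts per Ensembl gene and FPKM values. Per the submitters' processing notes, STAR 2.7.10a, DESeq2 1.38.3 and GRCz11 were used, and the sources used here name neither the counting tool nor its strand setting. The deposited FPKM equal count over length times 1 scale per library, so 27117 lengths were recovered as whole bases within 0.05. Counts were filtered with filterByExpr, scaled by TMM and fitted by edgeR's quasi-likelihood method (4.0.16, under R 4.3.3), with group as its sole term, with Benjamini-Hochberg adjustment over 17803 genes. The fit was also run on simulated data with known fold changes, and the share it recovered is not given here. Each SE beside an edgeR log2 fold change is the size of that fold change divided by the square root of its F statistic. Length trends came from a lowess curve (span 0.3) of each library. Alternatives used DESeq2 1.42.0 and limma 3.58.1 on log2 FPKM with pseudocounts of 1 and 0.1. Named genes were those called, the 4 most abundant and the 4 with the smallest p of each class, those with groups apart by a log2 fold change of 1 or more, and other chains of a called type, and further genes were chosen after their values were seen. Members and lists were chosen with earlier results of these data known.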

Additional observations from a re-analysis of the deposited data

How the results depend on the processing

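Over all genes, the edgeR count of 5 was 1 with library-size scaling, 28 without the count filter, 20 with the length trend removed, 0 with the replicate block, with only the non-injected or only the scrambled control, and 947 with the length trend removed and without sall4 MO 2. DESeq2 called 335, and limma 13 on log2(FPKM + 1), 29 on log2(FPKM + 0.1) and 0 without a filter. Leaving out 1 library gave 0 to 1492. The collagen count of 1 was 0 with library-size scaling, with limma without a filter, with the replicate block and with either kind of control alone, 3 with DESeq2, 9 with the length trend removed and without sall4 MO 2, and 0 to 12 leaving out 1 library. The count of 0 collagen pathway genes was 2 with DESeq2, 3 with the length trend removed and without sall4 MO 2, and 0 to 2 leaving out 1 library. The basement membrane median of -0.55 was -0.071 with only the non-injected controls, -0.21 with the length trend removed and without sall4 MO 2, and -0.70 to -0.071 leaving out 1 library. The medians of all collagen, fibrillar, notochord-type and other genes kept their sign and moved by less than the replicate spread under the 20 alternatives (19 distinct fits, since leaving out control 1 and using only the non-injected controls are the same fit), with ranges of -0.90 to -0.44 for all collagen, -1.49 to -0.89 for fibrillar, -0.62 to -0.14 for notochord-type and -0.90 to -0.23 for other genes. Of 27 named genes, 24 kept their direction throughout. The exceptions were col7a1l (0.68), at -0.088 on log2(FPKM + 0.1), -0.13 with the replicate block, -0.50 with the length trend removed and without sall4 MO 2 and -0.89 (without sall4 MO 2) to 1.18 leaving out 1 library, col18a1a at 0.19 with the length trend removed and without sall4 MO 2, and col8a1a, at -0.53 to 0.034 (without sall4 MO 2) leaving out 1 library. Over all alternatives the log2 fold changes of col18a1b were 3.00 to 4.89, and its call held in 11 of 19 distinct fits. It was lost at 4.25 with library-size scaling, 3.00 with limma without a filter, 4.46 with the replicate block (edgeR adjusted p = 0.23), 4.23 with only the non-injected and 4.78 with only the scrambled control. In the last fit the lone control is assumed to vary like the sall4 MO group. The cause of these changes was not tested. Replicate numbers showed no clear pairing in the values. Same-numbered libraries correlated at -0.28, -0.092 and 0.15 in their deviations from the group means, and of the sall4 MO libraries only the third correlated best with its own number. These deviations also hold each library's length trend, so the correlations cannot settle whether samples were paired. With 3 libraries per group and controls of mixed injection, the precision of every gene is limited. Replicates scattered more in the sall4 MO group than among the controls. For the median tested gene, the SD between replicates on the log2 CPM scale came to 0.61 in sall4 MO libraries and 0.26 in controls. Among the 42 tested collagen genes these medians were 0.65 in sall4 MO libraries and 0.39 in controls.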
